A study of Rattus norvegicus with 12 samples.

Results

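Leukotriene and prostaglandin enzymes were followed here as 10 genes chosen by name, Alox5, Alox5ap, Ltc4s, Lta4h, Alox15, Ptgs1, Ptgs2, Hpgds, Ptgds and Ptges, out of 14112 named genes that could be tested. The choice was made with earlier results of these data known, so counts set beside all items below are descriptive. The array carried 11 probes for these genes, of 41012 probes in all, with 2 probes for Ptgs2 and 1 for each other gene. RNA came from micropunches of the rostral ventrolateral medulla (RVLM), a part of the brainstem that sets sympathetic outflow and arterial pressure, in male F344 rats, an inbred strain. The rats were young (3 months), middle-aged (12 months) or aged (24 months), with 3 animals per age, and the labels name no treatment other than the isoflurane that all of them received before death. The samples came from 12 single-colour arrays, because replicate 3 of each age was hybridised to a pair of arrays, which were averaged. A punch is bulk tissue, so more cells of a type and more RNA per cell cannot be told apart in any value below. Of 5 listed markers of the C1 adrenergic neurons of the RVLM, Th, Dbh, Slc18a2 and Ddc were well above background on every array. The fifth, Pnmt, was not matched to a probe, so the C1 values below lack it. Levels of the C1 markers by age are given with those of other cells below.

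Both enzyme families start from arachidonic acid, a fatty acid that phospholipases cut out of membranes. In the lipoxygenase branch, Alox5 (arachidonate 5-lipoxygenase) takes arachidonic acid from the membrane protein Alox5ap and makes the unstable leukotriene A4, which Lta4h turns into leukotriene B4, an attractant for neutrophils, and which Ltc4s joins to glutathione to make the first of the cysteinyl leukotrienes. In the cyclooxygenase branch, Ptgs1 (the constitutive cyclooxygenase) and Ptgs2 (the inducible one) make prostaglandin H2, which Hpgds and Ptgds turn into prostaglandin D2 and Ptges into prostaglandin E2, the mediator of fever. In the brain, Hpgds and Ptgs1 are known from microglia, the resident macrophages, and Ptgds from the meninges and oligodendrocytes.

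Levels are log2 of the processed signal minus the 75th percentile of the same array, so a gene at 0 was as bright as that percentile and a negative level means dimmer. Probes differ in their response, so the level of one gene is not set against that of another. Between 73.5% and 77.1% of spots were well above background on an array, and no spot was saturated. Precision is limited by the number of arrays and animals. The median gap between paired arrays was 0.034 log2 units over 30 comparisons of the 10 genes, and the widest was 0.42, for Hpgds in middle-aged replicate 3. Young replicates 1 and 2 and middle-aged replicate 1 shared a slide, as did aged replicates 1 and 2 and middle-aged replicate 2, and slide 3 alone held all 3 ages. Slide was therefore partly confounded with age, and values with slide in the fit stand beside each of the 10 enzymes that passed.

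The probes of the 4 genes with the largest differences between ages are shown because they define what was measured. They are the array's own 60-base oligos, written 5′ to 3′, with positions on rat build rn3 per the file headers and all on the minus strand. No part is in capitals.
Hpgds: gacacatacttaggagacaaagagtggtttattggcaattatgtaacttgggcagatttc
Alox5: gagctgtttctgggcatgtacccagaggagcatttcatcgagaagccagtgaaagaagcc
Ltc4s: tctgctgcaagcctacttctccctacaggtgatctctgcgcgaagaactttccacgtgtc
Alox5ap: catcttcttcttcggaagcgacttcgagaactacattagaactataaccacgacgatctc
The Hpgds probe lies in chr4:94856449-94859640, the Alox5 probe in chr4:152855672-152857250 and the Ltc4s probe in chr10:35788767-35789815. These stretches of 3192, 1579 and 1049 bases are longer than the probe, so the letters of each are not contiguous in the genome. The Alox5ap probe is contiguous, at chr12:6246233-6246292. The longest run of letters that any pair among the 11 probes shared was 8 bases, and their GC content was 35% to 55%. An rn3 annotation of exons and UTRs was not used here.

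With age, RNA for the Alox5 partner protein and for the cysteinyl leukotriene enzyme rose in the RVLM while RNA for Alox5 itself fell. Between aged and young animals Alox5ap was 1.82-fold and Ltc4s 1.95-fold higher, and Alox5 was at 50.6% of its level in young animals. In the cyclooxygenase branch Ptgs1 was 1.54-fold higher in aged animals. Hpgds was 2.98-fold higher with dim young arrays raised to their lowest signal well above background, and 2.99-fold higher as measured. The remaining enzymes, Lta4h, Alox15, Ptgs2, Ptgds and Ptges, did not pass the test. In all, 5 of the 10 genes passed, 4 higher and 1 lower in aged animals, at an adjusted p under 0.05 in limma over 25445 items (1 item per named gene, or an unnamed probe). The background was 2.04% of all items, 1.57% higher and 0.472% lower. The count was 4 of 10 with slide in the fit, against 320 of 25445 items. It was 3 of 10 (Alox5, Ltc4s and Hpgds) without young replicate 2, without young replicate 3, without aged replicate 1 or without aged replicate 3. Over all items these fits called 271 to 337 of 25445. The median difference of the 10 genes was 0.25 log2 units, against 0.033 over all items. All 10 genes had a probe that passed the filter on dim signals, and 9 were well above background on every array. The exception, Hpgds, passed the filter through the middle-aged and aged arrays, the groups in which it was high, and its calls carry that limit. With only probes well above background on every array, Hpgds was not tested, and Alox5, Alox5ap, Ltc4s and Ptgs1 passed.

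**Figure D1:**
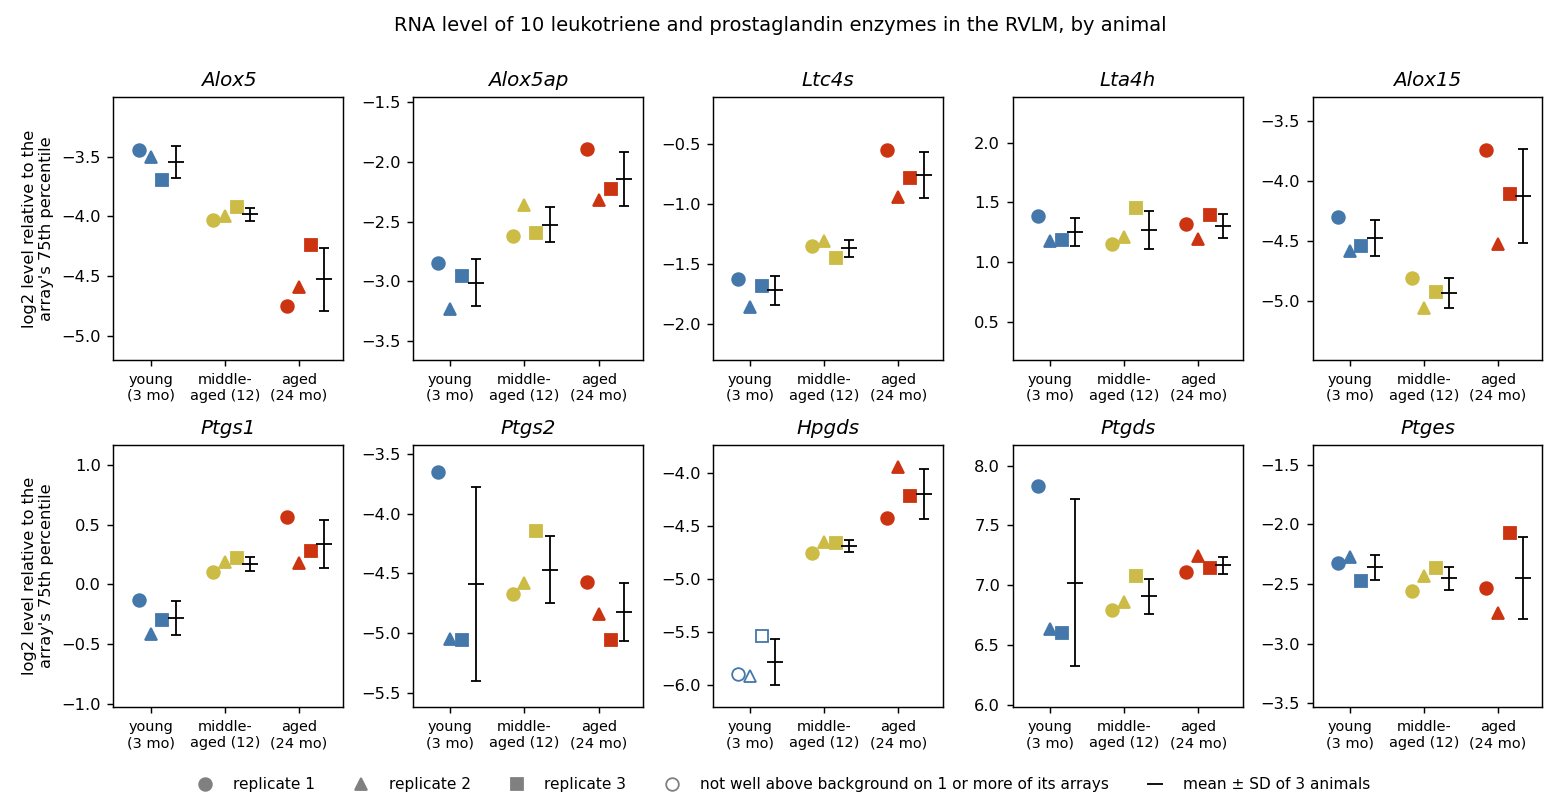
Each panel plots the log2 level of 1 gene relative to the 75th percentile of the array (vertical axis) in young, middle-aged and aged rats; symbols are animals, open where an array of the animal was not well above background, and bars give the mean ± SD of 3 animals. All 3 aged animals lay above all 3 young ones for Alox5ap, Ltc4s, Ptgs1 and Hpgds and below them for Alox5; young replicate 1 stood apart for Ptgs2 and Ptgds, at −3.65 and 7.83. Vertical axes differ in position between panels.

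Alox5, the enzyme that commits arachidonic acid to leukotrienes, had log2 levels of −3.44, −3.50 and −3.70 in young animals, −4.03, −3.99 and −3.93 in middle-aged animals and −4.75, −4.59 and −4.24 in aged animals. The 3 ages did not overlap, and each aged animal was lowest. The mean was −4.53 ± 0.26 in aged animals and −3.55 ± 0.13 in young animals (SD, n = 3 each), and Alox5 fell by 0.98 ± 0.13 (SE, adjusted p = 0.00726). The difference was −0.90 with slide in the fit (adjusted p = 0.0333) and −0.47 within slide 3, where 1 aged and 1 young animal were compared. With a background correction that adds an offset of 50 to every signal (normexp) the difference was −0.46 and the call was lost (adjusted p = 0.0785). Among the 3 ages Alox5 differed with a moderated F test (adjusted p = 0.0232).

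Alox5ap, the membrane protein that presents arachidonic acid to Alox5, went the other way. Its log2 levels were −2.85, −3.23 and −2.95 in young animals, −2.62, −2.36 and −2.60 in middle-aged animals and −1.89, −2.32 and −2.23 in aged animals. No value was shared between ages, although middle-aged replicate 2 at −2.36 lay just below aged replicate 2 at −2.32. Alox5ap averaged −2.15 ± 0.23 in aged animals and −3.01 ± 0.20 in young animals (SD, n = 3 each), a rise of 0.87 ± 0.14 (SE, adjusted p = 0.0199). It was 0.80 with slide in the fit (adjusted p = 0.0396) and 0.72 within slide 3. The call was lost in 8 of 23 alternatives, 4 of which left out no animal. It was 0.53 with normexp (adjusted p = 0.0589), and the size did not move with no filter on dim probes (adjusted p = 0.0555), the replicate block (adjusted p = 0.0513) or only the 2 groups compared (adjusted p = 0.0548). With young replicate 2 left out the difference was 0.76 (adjusted p = 0.0678) and with young replicate 3 left out 0.89 (adjusted p = 0.066). Leaving out aged replicate 1 gave 0.74 (adjusted p = 0.0531) and leaving out aged replicate 3 gave 0.91 (adjusted p = 0.0507). The log2 difference between Alox5ap and Alox5 signals in the same animal was 1.85 units larger in aged than in young animals, and the 3 aged values lay above the 3 young ones. This restates the opposite shifts of the 2 genes and is not a further result.

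Ltc4s, which makes leukotriene C4, also rose. Its log2 levels were −1.63, −1.86 and −1.68 in young animals, −1.35, −1.31 and −1.45 in middle-aged animals and −0.55, −0.94 and −0.78 in aged animals. The 3 ages were separate, with every aged animal above every middle-aged one and these above every young one. Ltc4s averaged −0.76 ± 0.19 in aged animals and −1.72 ± 0.12 in young animals (SD, n = 3 each), and rose by 0.97 ± 0.11 (SE, adjusted p = 0.00401). It passed under all 23 alternatives that gave a test, with adjusted p between 0.000325 and 0.0221, and was 0.94 with slide in the fit and 0.89 within slide 3. Its moderated F test over the ages gave an adjusted p of 0.0114.

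Lta4h, which makes leukotriene B4 from the same intermediate, showed no such shift. Its levels were 1.39, 1.18 and 1.18 in young animals, 1.15, 1.21 and 1.45 in middle-aged animals and 1.32, 1.19 and 1.40 in aged animals, and the ages overlapped. The difference between aged and young animals was 0.054 ± 0.11 (SE, adjusted p = 0.846). Within an animal, Ltc4s relative to Lta4h was 0.91 log2 units higher in aged than in young animals, with no overlap. This restates the rise of Ltc4s beside the flat Lta4h and is not a further result.

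Alox15, a separate lipoxygenase that is not part of leukotriene synthesis from Alox5, was dim. Its levels were −4.30, −4.59 and −4.54 in young animals, −4.81, −5.07 and −4.93 in middle-aged animals and −3.74, −4.52 and −4.11 in aged animals. The middle-aged animals were lowest and did not overlap either of the other ages, while aged and young animals overlapped. The differences were 0.35 ± 0.18 for aged minus young (adjusted p = 0.40), −0.46 ± 0.18 for middle-aged minus young (adjusted p = 0.716) and 0.81 ± 0.18 for aged minus middle-aged (adjusted p = 0.247). None of them passed.

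Of the cyclooxygenases, Ptgs1 had levels of −0.13, −0.41 and −0.30 in young animals, 0.11, 0.18 and 0.22 in middle-aged animals and 0.56, 0.18 and 0.28 in aged animals. Young animals lay below all others, and aged and middle-aged animals overlapped. Its probe is printed 10 times on each array, and the SD between these spots was 0.033 to 0.085 log2 units. Ptgs1 averaged 0.34 ± 0.20 in aged animals and −0.28 ± 0.14 in young animals (SD, n = 3 each), a rise of 0.62 ± 0.12 (SE, adjusted p = 0.0324). The size held with slide in the fit, at 0.59, and within slide 3, at 0.57, but the call did not (adjusted p = 0.0669 with slide). It was also lost without any of 7 of the 9 animals. With young replicate 2 left out the difference was 0.55 (adjusted p = 0.119) and with young replicate 3 left out 0.61 (adjusted p = 0.108). Leaving out aged replicate 1 gave 0.51 (adjusted p = 0.0745) and leaving out aged replicate 3 gave 0.65 (adjusted p = 0.077). The middle-aged animals enter only through the shared spread, and leaving out replicate 1, 2 or 3 of them gave an adjusted p of 0.0558, 0.0526 or 0.0574.

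Ptgs2, the inducible cyclooxygenase, was set apart by 1 young animal. Its levels were −3.65, −5.05 and −5.06 in young animals, −4.68, −4.58 and −4.15 in middle-aged animals and −4.57, −4.84 and −5.06 in aged animals. Young replicate 1 was the brightest of the 9 animals and the other two young animals were among the dimmest. The difference between aged and young animals was −0.24 ± 0.36 (adjusted p = 0.793), and 0.23 ± 0.19 without young replicate 1 (adjusted p = 0.64), so its sign rested on that animal. A second Ptgs2 probe was not well above background on any of the 12 arrays and gives no level.

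Hpgds, the haematopoietic prostaglandin D synthase, showed the largest difference of the 10 genes. It was well above background on 1 of the 4 young arrays and on all 4 middle-aged and all 4 aged arrays. The measured levels were −5.89, −5.92 and −5.54 in young animals, −4.75, −4.65 and −4.66 in middle-aged animals and −4.43, −3.95 and −4.22 in aged animals. The ages did not overlap, and middle-aged animals lay nearer to aged than to young ones. Hpgds was 2.98-fold higher in aged animals and 2.12-fold higher in middle-aged animals than in young ones. For this the signal of each young array was raised, where lower, to the lowest signal of any probe well above background on it. The young mean moved only from −5.783 to −5.776, so these folds are close to the measured 2.99 and 2.13. They allow little for dim signals and are not lower limits, as alternatives below gave smaller differences. The measured means were −4.20 ± 0.24 in aged animals, −4.69 ± 0.05 in middle-aged animals and −5.78 ± 0.21 in young animals (SD, n = 3 each). The fitted rise was 1.58 ± 0.14 in aged animals (SE, adjusted p = 0.00162), 1.28 with slide in the fit (adjusted p = 0.0128) and 1.26 within slide 3. The call was lost with the normexp background correction, where the difference was 0.32 (adjusted p = 0.482).

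Ptgds, the other prostaglandin D synthase, had levels of 7.83, 6.63 and 6.60 in young animals, 6.79, 6.86 and 7.07 in middle-aged animals and 7.11, 7.24 and 7.14 in aged animals. As for Ptgs2, young replicate 1 stood above every other animal. The difference between aged and young animals was 0.14 ± 0.29 (adjusted p = 0.85), and 0.55 ± 0.10 without young replicate 1 (adjusted p = 0.0562). The pair of young animals left then lay below all 6 older ones. Ptges, the inducible prostaglandin E synthase, had levels of −2.32, −2.28 and −2.48 in young animals, −2.56, −2.44 and −2.37 in middle-aged animals and −2.53, −2.74 and −2.07 in aged animals. Aged animals spread over the whole range of the others, and the difference between aged and young was −0.091 ± 0.16 (adjusted p = 0.822).

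**Figure D2:**
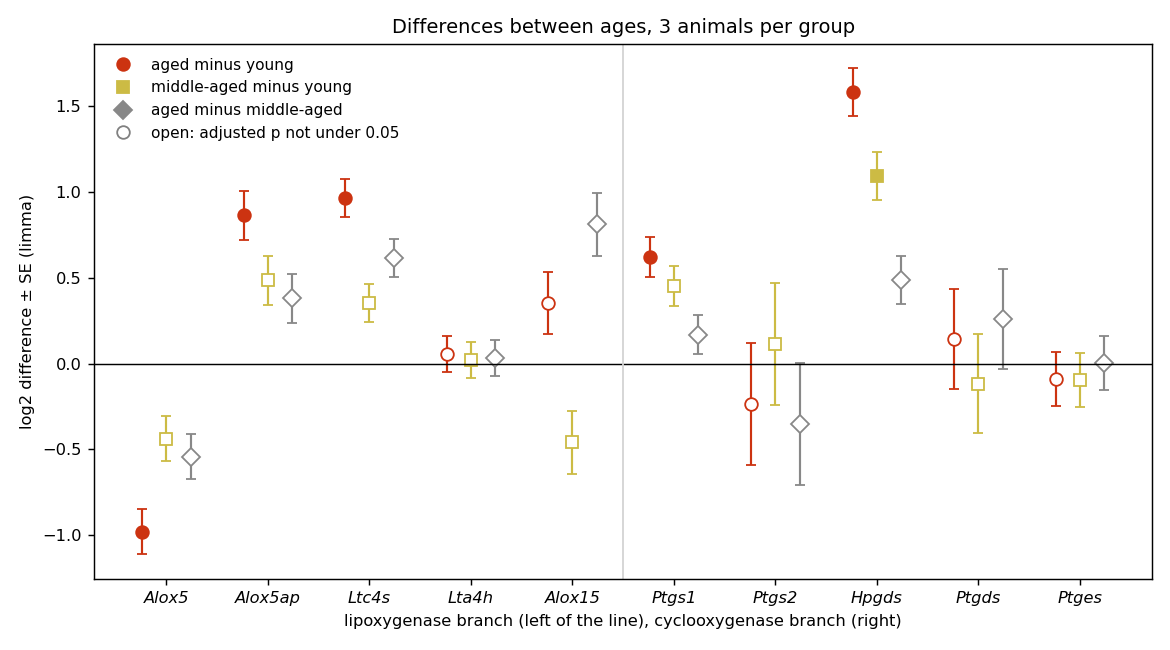
Each marker is the limma log2 difference of 1 gene with its SE (vertical axis), for aged minus young, middle-aged minus young and aged minus middle-aged animals, 3 animals per group; filled markers have an adjusted p under 0.05. For aged minus young, filled markers are Alox5 at −0.98, Alox5ap at 0.87, Ltc4s at 0.97, Ptgs1 at 0.62 and Hpgds at 1.58; for middle-aged minus young the filled marker is Hpgds at 1.09.

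Between middle-aged and young animals 1 of the 10 genes passed, against a background of 0.2% of items, 0.161% higher and 0.0393% lower. Hpgds, which passed the filter through the middle-aged and aged arrays, rose by 1.09 ± 0.14 (SE, n = 3 each, adjusted p = 0.0347). This call was lost with slide in the fit (0.88, adjusted p = 0.189) and in 14 of 22 alternatives that gave a test, while the difference was 1.05 within slide 1 and 0.61 within slide 3. It was also lost without any of 7 of the 9 animals, with differences of 1.03 to 1.22 over all 9 omissions and an adjusted p of up to 0.139. The other genes differed by −0.46 to 0.48 log2 units. At an unadjusted p under 0.05 there were 6 of the 10 (Hpgds, Ltc4s, Alox5, Alox5ap, Alox15 and Ptgs1), against 6.35% of all items. Groups did not overlap for 6 of the 10 genes, against 11.3% of all items.

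Between aged and middle-aged animals 0 of the 10 genes passed in limma, against a background of 0.0118% of items. At an unadjusted p under 0.05 there were 5, namely Ltc4s, Alox5, Alox5ap, Alox15 and Hpgds, against 10.7% of all items. Ltc4s came closest, at 0.61 ± 0.11 (SE, adjusted p = 0.161), and it differed by 0.63 within slide 2 and by 0.67 within slide 3. Groups did not overlap for 6 of the 10 genes, against 17% of all items. Between aged and young animals 5 of the 10 did not overlap, the same 5 that passed, against 22.7% of all items. Over the 3 ages 3 of the 10 genes differed by the F test (Hpgds, Ltc4s and Alox5), against 1.15% of items. Without young replicate 3 it was 1 of the 10 (Hpgds), against 104 of 25445 items.

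Genes of other cells in the punch moved with these results. All 10 microglia markers on the list were tested, and 7 of them rose in aged animals, against 1.57% of all items. With slide in the fit 6 rose, against 262 of 25445 items. The median difference of the 10 markers between aged and young was 0.95 log2 units, with a range of 0.48 to 1.82, against 0.033 over all items. The summed linear level of the list was 23.3 to 26.6 in young animals, 37.7 to 49.6 in middle-aged animals and 52.7 to 62.8 in aged animals, in multiples of the 75th percentile signal. A linear sum weighs bright genes most, and in aged animals the brightest were C1qa, Tyrobp, Trem2 and Aif1. Csf1r, Tmem119 and Itgam did not pass (adjusted p = 0.0981, 0.076 and 0.468). Itgam differed by −0.24 between middle-aged and young animals. The sum had the same order of group means as Alox5ap, Ltc4s, Ptgs1 and Hpgds, and the opposite order to Alox5. Its part in these results was not tested. Of 9 markers of perivascular macrophages, monocytes and neutrophils 6 were tested and 2 rose, Lyve1 (0.82) and Pf4 (0.96), against 1.57% of all items. The sum of the 6 was 0.61 to 0.80 in young animals, 0.70 to 1.01 in middle-aged animals and 1.08 to 1.64 in aged animals. With slide in the fit Lyve1 passed (0.96, adjusted p = 0.0111) and Pf4 did not (0.91, adjusted p = 0.0898). The largest differences of this list did not pass. S100a9, a calcium-binding protein of neutrophils and monocytes, was well above background on every array and differed by 2.00 ± 0.42 (SE, adjusted p = 0.052), with no overlap between aged and young animals. Its partner S100a8, well above background on all 4 aged arrays and on 1 of 4 young arrays, had a measured difference of 2.41 ± 0.71 (adjusted p = 0.158). Ccr2, a receptor of monocytes, was not well above background on any array.

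Other cells differed too. Of 8 oligodendrocyte markers 3 fell in aged animals, among them Mal (−0.51) and Ugt8 (−0.93), against 0.472% of all items. With slide in the fit 2 fell, against 58 of 25445 items, and Ugt8 differed by −1.32 (adjusted p = 0.0711). The sum of the 8 markers was 637 to 674 in young animals, 518 to 548 in middle-aged animals and 442 to 507 in aged animals, the same order of group means as Alox5. Of 5 C1 neuron markers 4 were tested, without Pnmt, and 0 passed in limma, with 2 at an unadjusted p under 0.05. Dbh, which makes noradrenaline, differed by −0.92 ± 0.20 (adjusted p = 0.0656) and Slc18a2, the vesicular monoamine transporter, by −0.53 ± 0.16 (adjusted p = 0.162). The C1 sum was 13.5 to 15.2 in young animals, 12.5 to 13.1 in middle-aged animals and 9.09 to 13.3 in aged animals, so aged and young animals did not overlap. Of 5 astrocyte markers 0 passed, with 2 at an unadjusted p under 0.05, and Gfap, the astrocyte filament protein, differed by 0.92 ± 0.23 (adjusted p = 0.10). Over all items 15.2% had an unadjusted p under 0.05 between aged and young animals. The part of these cells in the enzymes' values was not tested.

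Mast cells also make leukotriene C4 and prostaglandin D2. Of 8 mast cell markers 3 were tested and 0 passed in limma between aged and young animals, with 0 at an unadjusted p under 0.05, against 15.2% of all items. Their sum was 2.76 to 3.46 in young animals, 2.92 to 3.18 in middle-aged animals and 2.88 to 3.26 in aged animals. Most of this sum was Tpsab1, a tryptase, which was well above background on every array and differed by −0.054 ± 0.10 (adjusted p = 0.84). A second tryptase, Tpsb2, was well above background on all 4 young, all 4 middle-aged and 2 of 4 aged arrays, and Hdc, which makes histamine, on 1 of 4 young, all 4 middle-aged and 1 of 4 aged arrays. Of the 5 markers not tested, Fcer1a and Mcpt4 were well above background on 1 array each, and Cpa3, Mcpt1 and Ms4a2 on none. The sum thus follows mainly the 1 probe of Tpsab1, and whether that probe reads mast cell RNA here was not tested.

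Young replicate 1, which stood apart for Ptgds and Ptgs2, also had the highest level of fibroblast markers. The sum of 9 markers of meningeal and perivascular fibroblasts was 26.6 in young replicate 1, against 12.0 and 13.5 in the other young animals, 8.41 to 10.4 in middle-aged animals and 7.70 to 10.7 in aged animals. None of the 9 was at background on all arrays, and 0 of 9 passed in limma between aged and young animals, with 7 at an unadjusted p under 0.05, against 15.2% of all items. Of 6 choroid plexus markers 2 were tested, and their sum was at most 0.08 in any animal. The part of these cells in the Ptgds and Ptgs2 values was not tested.

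**Figure D3:**
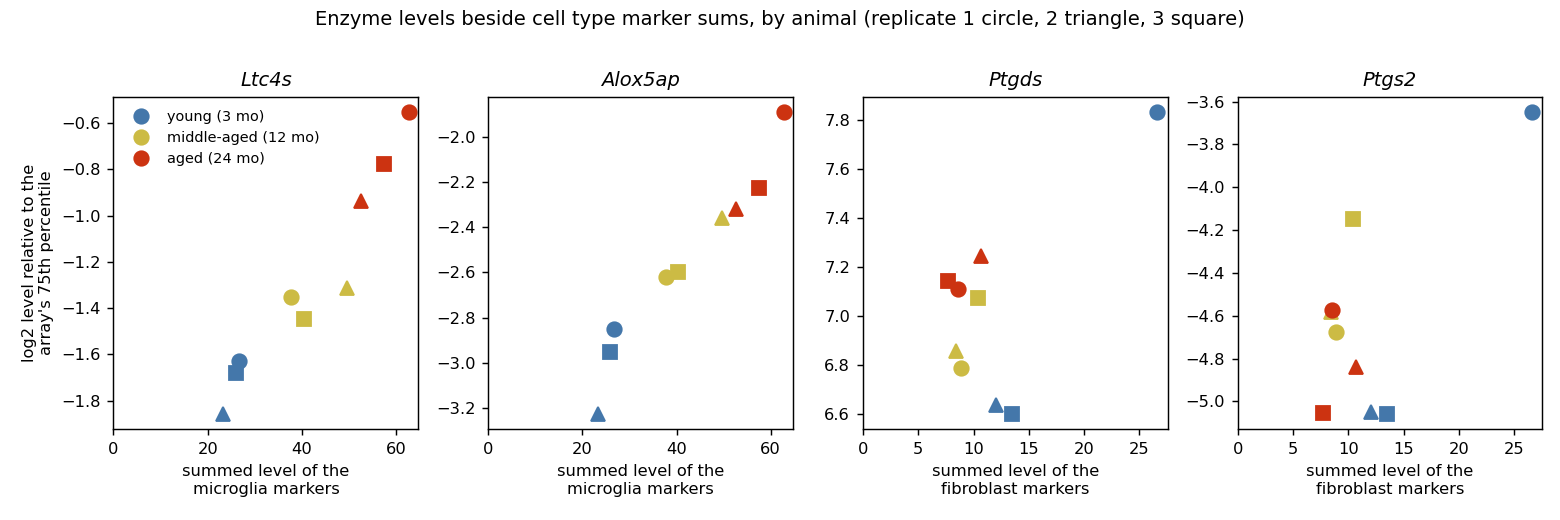
Each point is 1 animal, with the log2 level of an enzyme (vertical axis) set against the summed linear level of microglia markers (2 left panels) or fibroblast markers (2 right panels), in multiples of the 75th percentile signal. The 3 ages lie apart in the microglia panels, with sums of 23.3 to 26.6 in young, 37.7 to 49.6 in middle-aged and 52.7 to 62.8 in aged animals; young replicate 1 lies alone at a fibroblast sum of 26.6.

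The steps around these enzymes were described with 4 further gene lists. Over all items 1.57% rose and 0.472% fell between aged and young animals. For the release and recycling of arachidonic acid, 15 of 22 genes were tested, 1 rose and 0 fell in aged animals, with a median difference of 0.033 log2 units against 0.033 over all items. The gene was Pla2g3, a secreted phospholipase A2, with levels of −0.97, −1.43 and −0.80 in aged animals and −2.23, −1.94 and −2.21 in young animals. Aged animals lay above young ones, and the rise was 1.06 ± 0.16 (SE, adjusted p = 0.0148). It was 1.17 with slide in the fit. The call was lost without young replicate 1 (1.01, adjusted p = 0.0575), without young replicate 3 (1.02, adjusted p = 0.0661) and without aged replicate 1 (1.01, adjusted p = 0.0591).
Next in size in that list, Pla2g2a, another secreted phospholipase, differed by 1.00 ± 0.46 (adjusted p = 0.354) and Faah, which breaks down the endocannabinoid anandamide, by 0.25 ± 0.10 (adjusted p = 0.306). Pla2g2a was well above background on 1 of 4 young, 3 of 4 middle-aged and all 4 aged arrays. It passed the filter only through the aged group, in which it was high, and its difference carries that limit. Pla2g4a, the cytosolic phospholipase A2 that feeds both branches and was named after its value was seen, differed by 0.085 ± 0.15 (adjusted p = 0.821).

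Of the other eicosanoid synthesis enzymes 9 of 14 were tested, 2 rose and 0 fell, against 1.57% and 0.472% of all items. The median difference was 0.10, against 0.033 over all items. Tbxas1, thromboxane A synthase, which uses the same prostaglandin H2 as Hpgds, had levels of 0.11, −0.20 and −0.08 in aged animals and −0.96, −1.14 and −1.07 in young animals. Aged and young animals did not overlap. Tbxas1 rose by 1.00 ± 0.10 (SE, adjusted p = 0.00247), or by 0.91 with slide in the fit (adjusted p = 0.00576), and passed under all 23 alternatives that gave a test. Mgst1, a microsomal glutathione transferase, rose by 0.40 ± 0.08 (adjusted p = 0.0414), a call lost in 14 of the 23 alternatives, slide included (adjusted p = 0.0898), and without any of 8 of the 9 animals, with an adjusted p of up to 0.149. Ptgis, prostacyclin synthase, differed by 0.60 ± 0.41 (adjusted p = 0.528).

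Of 14 eicosanoid receptors 13 were matched to a probe, and 5 were bright enough to test. Ptger1, a receptor for prostaglandin E2, had levels of −4.41, −4.51 and −4.70 in aged animals and −5.35, −5.66 and −5.53 in young animals. It was well above background on every array and rose by 0.97 ± 0.11 (SE, adjusted p = 0.00401), or 0.96 with slide in the fit (adjusted p = 0.0462). The rise was 0.24 with the normexp background correction (adjusted p = 0.435). Against young animals it was also 0.76 ± 0.11 higher in middle-aged ones (adjusted p = 0.0495), a call lost in 20 of 23 alternatives. Of the others, Ptgdr2, a receptor for prostaglandin D2, differed by 0.16 ± 0.19 (adjusted p = 0.738) and Ptger2, a further receptor for prostaglandin E2, by −0.054 ± 0.24 (adjusted p = 0.939) between aged and young animals. The median difference of the 5 was −0.020, against 0.033 over all items. There were 4 receptors of the products of the risen enzymes and of Lta4h, named after their values were seen, that were not well above background on any of the 12 arrays. They were Ptgdr for prostaglandin D2, Cysltr1 for cysteinyl leukotrienes, and Ltb4r and Ltb4r2 for leukotriene B4. Other receptors of such products were detected. Besides Ptgdr2, Tbxa2r for thromboxane was well above background on every array and differed by −0.051 ± 0.10 (adjusted p = 0.844). Cysltr2, also for cysteinyl leukotrienes, was well above background on 1 young array only and was not tested.

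Of the genes of eicosanoid breakdown and transport 15 of 18 were tested and 0 passed in limma between aged and young animals. The median difference was 0.12, against 0.033 over all items. At an unadjusted p under 0.05 there were 7, against 15.2% of all items. The largest were Dpep2, a dipeptidase of the cysteinyl leukotrienes, at 0.82 ± 0.20 (adjusted p = 0.0886), Ptgr1, which inactivates leukotriene B4 and prostaglandins, at 0.48 ± 0.12 (adjusted p = 0.105), and Ephx1, an epoxide hydrolase, at 0.41 ± 0.12 (adjusted p = 0.155). Dpep2 was well above background on all 4 aged arrays and on 2 of 4 young arrays.

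**Figure D4:**
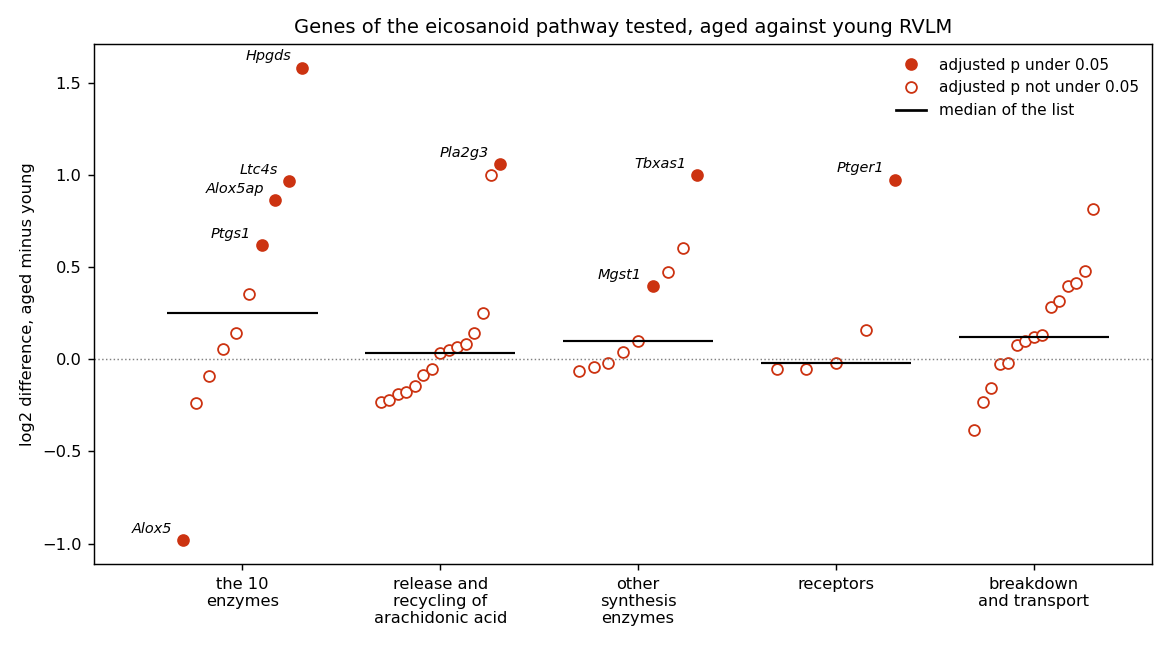
Each point is the log2 difference of a tested gene, aged minus young (vertical axis), for the 10 enzymes and 4 lists around them, sorted by size within a list; filled points have an adjusted p under 0.05 and black lines are medians. Named points at or above 0.97 are Hpgds, Ltc4s, Pla2g3, Tbxas1 and Ptger1, and Alox5 is the filled point below 0.

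For each enzyme that passed, the 5 named genes with the most similar pattern over the 9 animals were found among 12226 genes other than predicted loci, by the root mean square difference of centred log2 levels. For Ltc4s they were Ctss (0.062), Lyve1 (0.076), Aif1 (0.077), Myo1f (0.092) and Ptpn6 (0.094). Alox5ap had Ptpn6 (0.072), Aif1 (0.079), Nckap1l (0.085), Psmb8 (0.088) and Pycard (0.090), so Ptpn6 and Aif1 stood in both. The animals' own SD was 0.42 for Ltc4s and 0.39 for Alox5ap. These distances were picked as the smallest among 12226 genes, so their lying below the SD is no test of likeness.
The neighbours of Ptgs1 included Casp1, Tnfaip8l2, Psmb8 and Irf5, at 0.078 to 0.089. Hpgds lay farther from its neighbours Acp5, Rai14, Ctse, Sema3b and C3, at 0.18 to 0.22, beside an SD of 0.68. Alox5 was nearest to Aacs (0.13), Scd (0.13), Cyp51 (0.15), Asb4 (0.16) and Frem3 (0.16), beside an SD of 0.43. All of these distances describe the same 9 animals on which the enzymes were measured.

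Promoters are shown for Alox5, which fell, and for Ltc4s and Ptgs1, which rose, to set the sequences of genes that moved apart beside each other. They are the 250 bases before the start of the gene in RefSeq on build GRCr8, written 5′ to 3′ on the strand of the gene, and 7 of the 10 genes matched an entry. A search on either strand covered 5 motifs: the PU box of macrophage factors (GAGGAA), the GC box (GGGCGG), the TATA box (TATAAA), the E box of USF (CACGTG) and the core of the CRE (TGACG). Capitals mark matches to the PU, GC and TATA boxes. The windows shown held no match to the E box or the CRE core.
Alox5: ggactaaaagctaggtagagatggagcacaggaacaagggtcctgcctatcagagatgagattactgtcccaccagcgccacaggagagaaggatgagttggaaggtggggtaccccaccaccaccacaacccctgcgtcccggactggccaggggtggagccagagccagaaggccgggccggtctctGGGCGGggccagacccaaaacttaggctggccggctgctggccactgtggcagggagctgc
Ltc4s: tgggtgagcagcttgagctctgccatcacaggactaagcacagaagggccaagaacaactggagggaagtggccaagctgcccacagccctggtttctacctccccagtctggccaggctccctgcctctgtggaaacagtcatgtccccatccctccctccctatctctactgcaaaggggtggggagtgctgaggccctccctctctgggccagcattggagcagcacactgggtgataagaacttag
Ptgs1: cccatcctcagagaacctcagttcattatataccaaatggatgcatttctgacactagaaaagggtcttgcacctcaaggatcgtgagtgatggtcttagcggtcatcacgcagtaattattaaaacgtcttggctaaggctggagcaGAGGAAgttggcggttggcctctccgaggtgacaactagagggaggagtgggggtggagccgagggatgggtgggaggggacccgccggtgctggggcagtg
They lie at chr4:151251127-151251376 on the minus strand, chr10:35063595-35063844 on the minus strand and chr3:39981169-39981418 on the plus strand. Alox5 held 1 GC box, which starts 61 bases before the gene, and Ptgs1 held 1 PU box at 102 bases. None of the 5 motifs is spelled in the window of Ltc4s. Over 33469 promoters of the same length the PU box occurred in 23.3%, the GC box in 30.5%, the TATA box in 12.9%, the E box in 5.59% and the CRE core in 18.2%. The PU box was also present in the windows of Lta4h and Ptges, and the GC box in those of Lta4h, Ptges, Ptgds and Ptgs2, none of which passed.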

How the data were processed

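Total RNA of RVLM punches was hybridised to 12 single-colour Agilent whole rat genome arrays, 3 animals per age. The deposited files hold linear spot intensities from Agilent Feature Extraction 9.5.1.1, per the file headers and the submitters' processing notes. The processed signal is background-subtracted and detrended, and was not scaled between arrays. Other flags for outliers, saturation and spots well above background are also as deposited. The deposited series matrix holds a score with mean 0 and SD 1 within each array; its log base is not given in the sources used here, and its column medians were −0.04 to −0.01. It was used as an alternative only.

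Here outlier spots (57 to 140 per array) were set missing, spots of a probe were averaged as log2, and the 75th percentile of the array was subtracted. Both arrays of replicate 3 were averaged. Of 41012 probes, 29797 were kept, those well above background on all arrays of 1 age or more. The brightest kept probe stood for a gene, which gave 25445 items, 14112 of them named through RefSeq accessions, names or synonyms. Group means were fitted with limma 3.58.1 (R 4.3.3) over all 9 animals. P-values are two-sided, adjusted by Benjamini and Hochberg over all items, with a threshold of 0.05, and rose and fell are used only below it. Samples were grouped by the titles in the labels. The script was tested on simulated data. Named in the text were all 10 members, the pathway genes that passed, and the largest differences up to 3 per list. Some similar genes and markers are not reported here. Members, lists and tests were chosen with earlier results of these data known. Alternatives covered normalization, background, filter, slide, replicate block, the series matrix, probe choice, groups fitted, technical replicates and each animal left out.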

Additional observations from a re-analysis of the deposited data

How the results depend on the processing

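The 5 genes that passed between aged and young animals kept their direction under every alternative run. Ltc4s passed under all 23 that gave a test. Alox5, with 23, and Hpgds, with 22, passed under all but the normexp background correction, which adds an offset of 50 by construction. Alox5ap missed in 8 of 23 and Ptgs1 in 12 of 23. Hpgds was not tested with only probes well above background on every array. The count of 5, beside 520 of 25445 items, was 2 with normexp (309 items) and 3 with only the 2 groups compared (343 items). It was 3 with no filter on dim probes (288 of 35938 items) and 3 to 5 with single animals left out (271 to 510 items). Replicate numbers did not pair the samples: correlations of same-numbered deviations were −0.41 to 0.37. With the replicate block the counts were 3 for aged against young (356 items) and 0 for middle-aged against young (8 items). The count of 1 between middle-aged and young animals was 0 with normexp, no filter, only probes well above background on every array, slide as a term, animal as a random block, only the 2 groups compared or only technical replicate 2, and 0 to 1 with single animals left out. Over all items, with 51 calls in the main fit, these fits called 3 to 75, and 2 to 26 with single animals left out. With animal as a random block and no slide term, 1 gene passed between aged and middle-aged animals (Ltc4s, 0.62, adjusted p = 0.0458) and 5 passed the F test, which gave 1 with normexp and 1 to 3 with single animals left out. Over all items that random block fit called 26 between aged and middle-aged animals and 418 by the F test. The F test called 197 items with normexp and 104 to 262 with single animals left out. Of the lists, other synthesis enzymes had 1 call in place of 2 with quantile normalization, no filter, slide as a term, the replicate block, only the 2 groups compared or only technical replicate 1, and 1 to 2 with single animals left out. Receptors had 0 in place of 1 with normexp. Release of arachidonic acid had 0 to 1, and breakdown 0 to 1 (Dpep2, without aged replicate 3), with single animals left out. Over the same alternatives the marker lists had 5 to 9 calls for microglia, 1 to 3 for perivascular macrophages, monocytes and neutrophils, 2 to 4 for oligodendrocytes and 0 to 1 each for fibroblasts, C1 neurons and astrocytes. The calls over all items between aged and young animals ranged from 271 to 623 in these alternatives. The signs that changed all belonged to differences that did not pass. With single animals left out, aged minus young ranged over −0.47 to 0.23 for Ptgs2, −0.068 to 0.55 for Ptgds and −0.28 to 0.055 for Ptges. Middle-aged minus young ranged over −0.068 to 0.090 for Lta4h, −0.12 to 0.59 for Ptgs2 and −0.33 to 0.29 for Ptgds, and aged minus middle-aged over −0.028 to 0.12 for Lta4h and −0.19 to 0.15 for Ptges. Within slide 3, aged minus young was 0.054 for Ptgs2 and 0.36 for Ptges, middle-aged minus young was 0.46 for Ptgds and 0.18 for Ptges, and aged minus middle-aged was −0.050 for Lta4h. Within slide 2 aged minus middle-aged was −0.076 for Lta4h and −0.18 for Ptges, and within slide 1 middle-aged minus young was −0.093 for Lta4h and −0.11 for Ptgs2. Normexp gave −0.078 for Ptgs2, middle-aged minus young, and −0.0092 for Lta4h, aged minus middle-aged. For Ptges, aged minus middle-aged was −0.033 with quantile normalization, −0.023 in the units of the series matrix and −0.036 with only technical replicate 2. The cause of these changes was not tested. Dim probes limit Hpgds in young animals and most receptors.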

Other observations

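Ptgds is also known from oligodendrocytes, the myelin-forming cells. All 8 oligodendrocyte markers were tested, and 3 fell and 0 rose between aged and young animals, against 0.472% and 1.57% of all items. The median difference of these markers was −0.46 log2 units against 0.033 over all items. Their summed linear level was 636.7 to 674.1 in young animals, 517.5 to 548.2 in middle-aged animals and 442.03 to 506.8 in aged animals, and the ages did not overlap. Over the same ages the level of Ptgds overlapped between aged and young animals, through young replicate 1 alone (7.83). The other young animals, at 6.63 and 6.60, lay below every aged one (7.11 to 7.24). Neuron markers gave no such order, with 0 of 5 past the threshold in limma (0 at an unadjusted p under 0.05) and sums of 144.1 to 170.7 in aged animals and 150.2 to 187.7 in young animals. The 2 markers of red blood cells that were tested, Hbb and Alas2, differed by 0.91 and 0.89 log2 units between aged and young animals and did not pass (adjusted p = 0.102 and 0.155).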
